A study of Mus musculus with 6 samples.

Results

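The 10 genes described here encode surface antigens by which immature, transitional and mature B cells are told apart: Ms4a1 (CD20), Cd24a, Cd93, Cr2 (CD21), Fcer2a (CD23), Cd37, Cd38, Cd53, Cd81 and Ptprc (CD45). They were measured in Wehi-231, a mouse B cell lymphoma line of (BALB/c x NZB)F1 origin grown in DMEM with serum. One group of arrays came from cells carrying a short hairpin RNA labelled shTFII-I, after the transcription factor TFII-I, and the other from cells carrying a hairpin labelled shCT, the comparison group, with 3 Illumina bead arrays in each. By its title the series is about TFII-I guiding the DNA-binding protein CTCF to gene promoters, and these arrays compare transcript levels under both hairpins. The labels give no hairpin sequence, no time after its delivery and no word on clones or separate cultures, so a p-value here covers the spread among these arrays alone, and that spread may be technical. Members were found by gene symbol in the platform annotation, which named 17 of the 45281 probes for 9 of the 10 genes. Cd38, an enzyme that makes cyclic ADP-ribose, had no probe named for it and has no value here.

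As a B cell leaves the bone marrow it changes its coat of surface proteins. CD24 and CD93 are high on newly formed and transitional cells, while CD21 and CD23 appear as cells mature, CD21 highest on marginal zone and CD23 on follicular cells. CD20 and CD45 are carried from earlier stages on. CD37, CD53 and CD81 are tetraspanins, small proteins that cross the membrane 4 times and hold partner receptors in patches. CD81 and CD21 belong to the coreceptor of the B cell receptor.

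The promoters of Cd81 and Cd53 are shown because these are tetraspanins of one family, of which the first had the widest difference between the groups among the tested members and the second had nearly none. TFII-I is known to bind E-boxes, written CANNTG, and initiator elements, and CTCF is named for binding CCCTC. The sequences are the 250 bases before the RefSeq transcript start (GRCm38.p6), 5′ to 3′ on the gene's strand, and capitals mark CANNTG and CCCTC, the latter on either strand, where it reads GAGGG on the opposite one.
Cd81 (chr7:143052500-143052749, plus strand): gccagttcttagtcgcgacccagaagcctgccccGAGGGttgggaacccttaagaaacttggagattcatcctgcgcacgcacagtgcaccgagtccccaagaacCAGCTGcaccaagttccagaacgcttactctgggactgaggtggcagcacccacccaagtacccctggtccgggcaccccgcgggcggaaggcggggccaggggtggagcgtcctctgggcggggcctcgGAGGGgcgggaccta
Cd53 (chr3:106790150-106790399, minus strand): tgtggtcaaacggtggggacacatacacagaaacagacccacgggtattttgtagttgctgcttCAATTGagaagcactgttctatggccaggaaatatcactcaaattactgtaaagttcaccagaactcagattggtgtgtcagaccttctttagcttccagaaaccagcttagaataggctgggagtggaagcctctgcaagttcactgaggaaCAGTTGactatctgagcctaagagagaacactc

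The Cd81 window held 1 match to CANNTG, 2 to CCCTC and 3 to the GC box GGGCGG, counted on both strands. The Cd53 window held 2 matches to CANNTG and 0 to CCCTC or GGGCGG. In the Cd81 window the last GC box shares bases with the second CCCTC match. Of all 32851 promoter windows of this length, 66.2% held CANNTG, 60.5% CCCTC and 32.7% GGGCGG, so that each motif is common and a match is a description of the letters alone. G and C made up 65.6% of the Cd81 window and 45.2% of the Cd53 window, against a median of 52.4% over all windows. Cd81 had 16 CpG dinucleotides and Cd53 had 2, against a median of 6 over all windows. The window of Cd37, also a tetraspanin, held 2 matches to CANNTG, 1 to CCCTC and 1 to GGGCGG, with 8 CpG dinucleotides. Any link between these motifs and the differences was not tested. RefSeq windows were matched for 7 of the 10 genes; Ms4a1, Cd24a and Cd93 were not matched.

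Most marker probes lay at background, as did most probes of the table. Values are log2 intensities that the authors had normalized between arrays, with background left in. The level of 6.61, which 1% of the estimated background exceeds, was taken as the limit, and a probe was tested where it exceeded that level on at least 3 of the 6 arrays. Of the 17 marker probes 6 passed, or 35.3%, against 26.8% of all probes in the table. They were for Fcer2a (2 probes), Cd37, Cd53, Cd81 and Ptprc. None of the probes of Ms4a1, Cd24a, Cd93 and Cr2 passed, and these genes stood at background as measured by their named probes. A probe at background does not show that its gene is silent, and intensities of different probes cannot be ranked against each other.

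**Figure D1:**
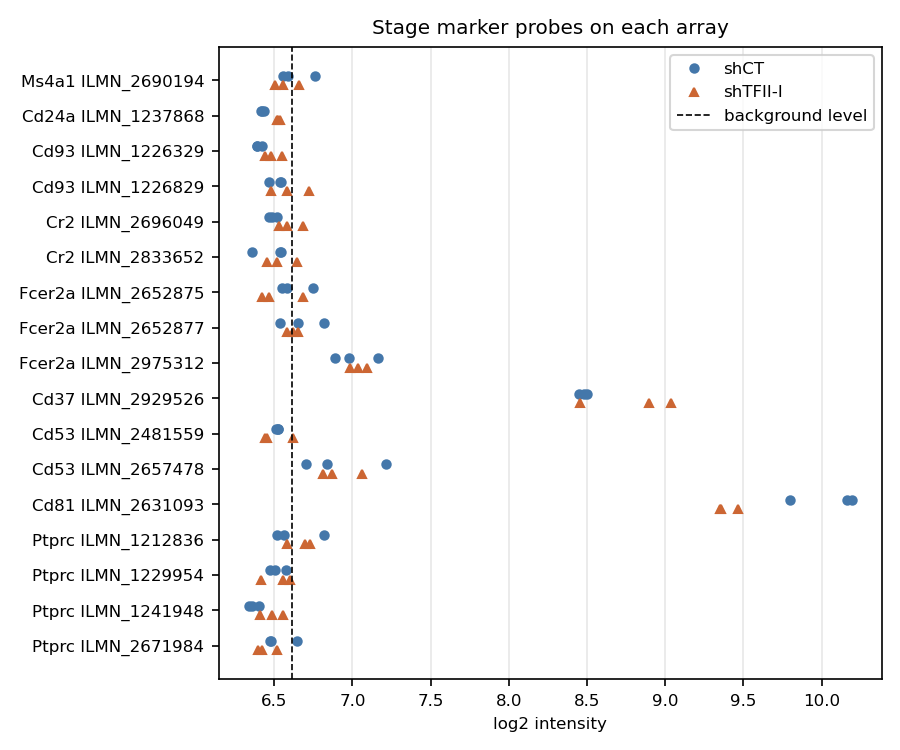
Log2 intensity (x axis) of each of the 17 marker probes (y axis) on the 3 shCT arrays (circles) and the 3 shTFII-I arrays (triangles), with the background level of 6.61 as a dashed line. Cd81 and Cd37 stand clear of the line on all arrays, Cd53 and Fcer2a have 1 probe each that does so, and the other probes sit on or beside it.

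Other B cell genes were expressed in the line, while the hairpin's target could not be checked. Of 10 genes fixed as B cell identity markers, 7 had a named probe and 6 of these passed the filter (Cd22, Btk, Blnk, Ebf1, Cd79b and Pax5), the exception being Ms4a1. Cd79a and Ighm were among those without a named probe. The mean log2 level of the B cell markers that passed ran from 8.05 to 8.49 in shCT and from 8.48 to 8.55 in shTFII-I arrays. Pax5 alone lay beside the background level, above it on 1 shCT and 2 shTFII-I arrays. Of other cell types, 2 of 13 T cell markers with a probe passed (Zap70 and Cd8b1), 2 of 12 myeloid (Csf1r and Tyrobp), 1 of 7 NK (Prf1), 1 of 7 erythroid (Klf1) and 1 of 8 fibroblast markers (Acta2). Cd3d, Cd3e, Cd3g, Cd14, Itgam and Col1a1 did not pass. The mean log2 level of the T cell markers that passed ran from 9.43 to 9.82 in shCT and from 9.03 to 9.54 in shTFII-I arrays. For the myeloid markers it ran from 6.48 to 6.67 and from 6.62 to 6.66. The T cell and myeloid means rest on 2 genes each. They cannot be ranked against the B cell mean, since intensities of different probes are not comparable. The part of these other markers in the results below was not tested. The only probe named for Gtf2i, which encodes TFII-I, was below background on every array, at 6.47, 6.56 and 6.41 in shCT and 6.40, 6.53 and 6.44 in shTFII-I cells, so the knockdown cannot be seen in these values. Arrays of one group correlated with each other at 0.945 to 0.971 over 12131 probes and arrays of different groups at 0.944 to 0.980.

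Cd81 showed the widest separation of the tested marker probes, with lower values in the shTFII-I cells. On the shCT arrays it read 10.17, 10.19 and 9.80 (log2 intensity), and on the shTFII-I arrays 9.36, 9.46 and 9.35. Every shTFII-I array lay below every shCT array, with a gap of 0.33 on the log2 scale between the nearest arrays of the groups. The shCT replicate 3 was the lowest of its group, and the 3 shTFII-I arrays lay close together. Group means were 10.05 ± 0.22 and 9.39 ± 0.06 (SD, n = 3 each), a difference of -0.66 ± 0.14 (log2, SE, shTFII-I minus shCT), which is 1.58-fold lower. The 95% interval of limma ran from 1.25-fold to 1.99-fold lower. Of 12131 probes tested, 118, or 0.973%, had a difference at least as far below 0. That share pools dim and bright probes. The median residual SD was 0.107 in the dimmest 25% of probes and 0.359 in the brightest 25%. In bulk RNA fewer cells with a transcript and less of it per cell cannot be told apart.

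The Cd81 difference did not pass the test across the table. Limma gave an unadjusted p of 0.00233, and the p adjusted over all 12131 probes by Benjamini-Hochberg was 0.475. Of the 6 marker probes tested 0 passed an adjusted p of 0.05, where 0% of all tested probes did. At an unadjusted p under 0.05 there was 1 marker probe, Cd81, where 6.5% of all tested probes reached it in either direction and 3.5% reached it with lower values in shTFII-I cells. The SE of 0.14 rests on a prior that is the same for dim and bright probes. With a robust prior fitted as a trend on intensity, the SE of Cd81 was 0.31, its 95% interval ran from -1.29 to -0.03 on the log2 scale, and limma's adjusted p was 0.745. With that prior 14 of all probes passed, and none of them was a marker probe. For groups of this size the smallest p of an exact permutation test is 0.1.

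**Figure D2:**
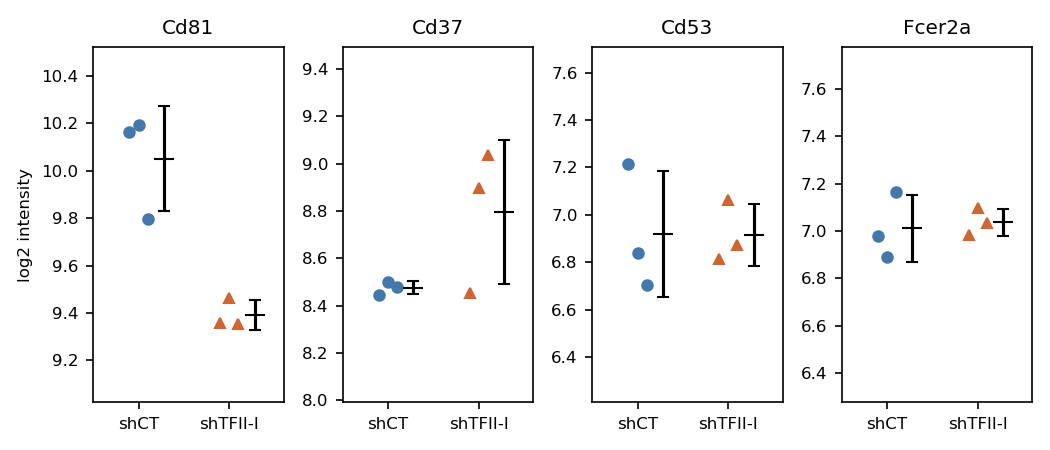
Log2 intensity (y axis, the same span in each panel) of the brightest probe of Cd81, Cd37, Cd53 and Fcer2a on the 3 shCT arrays (circles) and 3 shTFII-I arrays (triangles), with the group mean and SD (bars). Only the Cd81 groups stand apart; 2 of the 3 shTFII-I arrays of Cd37 lie above all shCT arrays.

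Cd37, a tetraspanin of mature B cells, lay well above background and leaned the other way. It read 8.45, 8.50 and 8.48 in shCT arrays against 8.46, 8.90 and 9.04 in shTFII-I arrays. The shCT arrays were nearly equal, shTFII-I replicates 2 and 3 lay above them, and shTFII-I replicate 1 lay among them. Means were 8.48 ± 0.03 and 8.80 ± 0.30 (SD, n = 3 each), a difference of 0.32 ± 0.17 (log2, SE) with a 95% interval from -0.07 to 0.72 (limma adjusted p = 0.817). The difference was 0.49 without shTFII-I replicate 1 and 0.20 without shTFII-I replicate 3.

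Cd53, the tetraspanin found on most white blood cells, did not separate the groups. Its brighter probe read 7.21, 6.84 and 6.70 in shCT arrays against 6.81, 7.06 and 6.87 in shTFII-I arrays. The shCT arrays held both the highest and the lowest value. The difference was -0.002 ± 0.16 (log2, SE), and its 95% interval spans changes from 1.31-fold lower to 1.30-fold higher (limma adjusted p = 0.999). The second Cd53 probe was near background, at 6.52, 6.52 and 6.51 in shCT and 6.46, 6.62 and 6.44 in shTFII-I arrays, with 1 array above the level.

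Fcer2a, the low-affinity receptor for IgE that marks follicular B cells, was detected on all arrays by 1 of its 3 probes. The values were 6.98, 6.89 and 7.16 in shCT against 6.98, 7.10 and 7.03 in shTFII-I arrays. The groups overlapped, with a difference of 0.03 ± 0.12 (log2, SE) and a 95% interval from -0.26 to 0.31 (limma adjusted p = 0.988). A second probe read 6.53, 6.65 and 6.82 in shCT and 6.58, 6.65 and 6.62 in shTFII-I arrays, a difference of -0.05 ± 0.12 (limma adjusted p = 0.981). The remaining probe, which did not pass the filter, read 6.58, 6.55 and 6.75 in shCT and 6.47, 6.42 and 6.68 in shTFII-I arrays. The shCT replicate 3 had the highest value of all 6 arrays on each of the 3 probes, which share the annotated transcript NM_013517.

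Ptprc, the receptor phosphatase that sets the activity of Src family kinases in lymphocytes, had 4 named probes, and 1 of them reached the level on 3 arrays. It read 6.82, 6.56 and 6.52 in shCT against 6.73, 6.69 and 6.58 in shTFII-I arrays. One shCT and 2 shTFII-I arrays were above background, and the difference was 0.04 ± 0.13 (log2, SE, limma adjusted p = 0.985). The other 3 probes together had 1 value above the level and differed by 0.01, 0.12 and -0.09. A second Ptprc probe is annotated to the same transcript, NM_011210, as the tested probe, and its values were 6.48, 6.64 and 6.47 in shCT and 6.52, 6.40 and 6.42 in shTFII-I arrays.

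**Figure D3:**
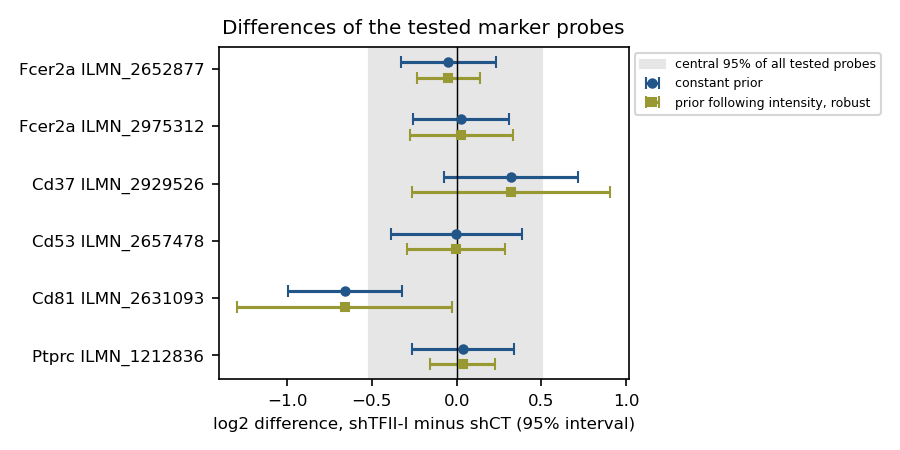
Log2 difference, shTFII-I minus shCT, with its 95% interval (x axis) for the 6 marker probes that passed the filter, under limma's constant prior (circles) and a robust prior that follows intensity (squares). The grey band holds the central 95% of the differences of all 12131 tested probes, dim and bright together, from -0.516 to 0.501. Cd81 lies outside the band, and its interval widens most towards 0 under the second prior.

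The markers of immature and transitional cells stood at background. Cd24a, the heat-stable antigen, read 6.41, 6.43 and 6.42 in shCT and 6.52, 6.52 and 6.54 in shTFII-I arrays, all 6 below the level. The 2 Cd93 probes read between 6.39 and 6.72, with 1 value above the level. Cd93 encodes the antigen known as AA4.1 in the mouse. The first of these probes read 6.39, 6.42 and 6.39 in shCT and 6.44, 6.48 and 6.55 in shTFII-I arrays. On the second probe, at 6.54, 6.54 and 6.47 in shCT and 6.58, 6.72 and 6.48 in shTFII-I arrays, the groups overlapped.

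Ms4a1 and Cr2 did not pass the filter either. Ms4a1, the membrane protein to which rituximab binds in humans, read 6.76, 6.55 and 6.59 in shCT and 6.66, 6.50 and 6.55 in shTFII-I arrays, with 1 array of each group above the level. Cr2, the receptor for complement fragments, read 6.52, 6.49 and 6.47 in shCT and 6.53, 6.68 and 6.58 in shTFII-I arrays on its first probe. On its second probe it read 6.53, 6.36 and 6.54 in shCT and 6.52, 6.64 and 6.46 in shTFII-I arrays. Both Cr2 probes exceeded the level on 1 array only, the second shTFII-I array.

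Groups did not overlap in 5 of the 17 marker probes, or 29.4%, where 10.3% of all 45281 probes were so. Only the Cd81 probe among them had passed the filter; of the tested probes 11.4% had groups apart and 5.84% had them apart with shTFII-I lower. The other 4, 1 probe each of Cd24a, Cd93, Cr2 and Ptprc, did not pass the filter. All 4 were apart with shTFII-I higher, and 5.21% of all probes in the table, bright or dim, were apart in that direction. Their differences were 0.10, 0.09, 0.11 and 0.12 on the log2 scale. Of the values of these 4 probes 1, for Cr2, exceeded the background level, and no fold is given.

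The tetraspanins as a family lay on both sides of 0. Of 24 listed, 23 had a named probe, 12 were tested by their brightest probe, 4 were higher and 8 lower in the mean, and 0 passed. Their median log2 difference was -0.04, against 0.0003 over 7211 genes. An unadjusted p under 0.05 was reached by 2, or 16.7%, against 7.31% of all genes. Those 2 were Cd81 and Cd9, a tetraspanin of marginal zone B cells and plasma cells. Cd9 read 7.53, 7.78 and 7.70 in shCT and 7.20, 7.26 and 7.32 in shTFII-I arrays. Its groups did not overlap, and the difference was -0.41 ± 0.12 (log2, SE, limma adjusted p = 0.637). Tspan33 differed by 0.17 ± 0.11, with its shTFII-I arrays above its shCT arrays (limma adjusted p = 0.888). In the MS4A family, to which Ms4a1 belongs, 15 of 16 genes had a named probe and 0 passed the filter.

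Partners of Cd81 and Cr2 in the coreceptor, with its regulators, went both ways. Of 12 genes 7 were tested, 4 higher and 3 lower in the mean, with a median log2 difference of 0.02 and 0 past the threshold. Besides Cd81, only Fcgr2b, the inhibitory Fc receptor, had an unadjusted p under 0.05, which makes 28.6% of the list against 7.31% of all genes. That share counts Cd81 itself, already described above, among only 7 tested genes. Fcgr2b was thus the only further gene. Fcgr2b read 8.40, 8.44 and 8.58 in shCT and 7.97, 7.58 and 7.62 in shTFII-I arrays, a difference of -0.75 ± 0.14 (log2, SE, limma adjusted p = 0.409), while its other 2 probes differed by -0.12 and -0.06. Ifitm1, an interferon-induced membrane protein known in humans to join complexes with CD81, reached the background level in shTFII-I cells only, on all 3 arrays. Its shTFII-I mean was 1.07-fold above the background level, a ratio that makes no allowance for error. The difference between the groups was 0.23 ± 0.11 (log2, SE, limma adjusted p = 0.783). Ifitm1 passed the filter through the shTFII-I arrays alone, which set its direction. Without it 3 genes of the list were higher and 3 lower, with a median of 0.006. Cd72 differed by 0.18 ± 0.15 (limma adjusted p = 0.935).

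**Figure D4:**
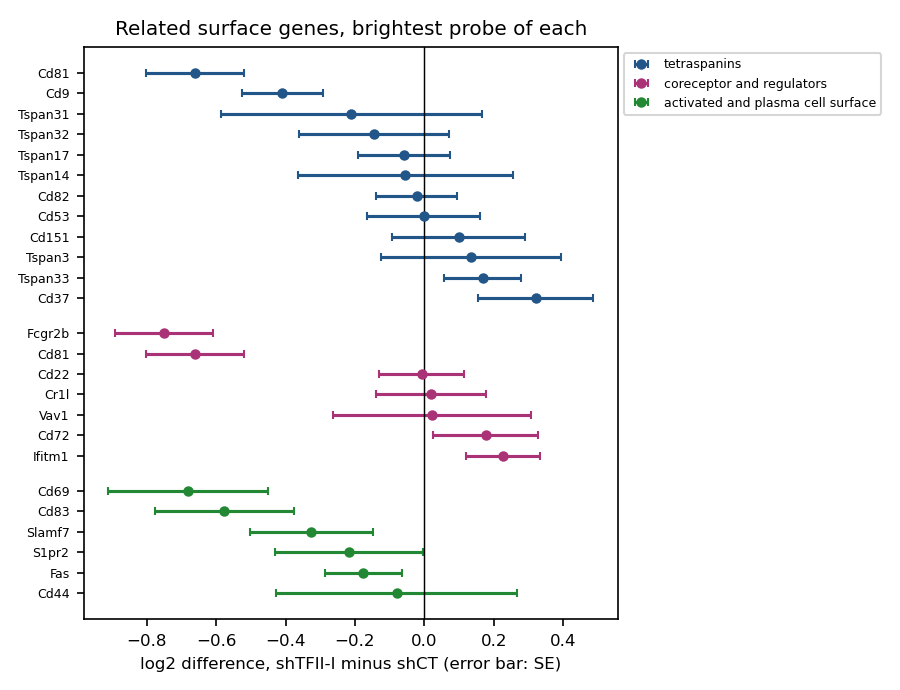
Log2 difference, shTFII-I minus shCT, with its SE (x axis) for the brightest probe of each tested gene of 3 lists (y axis): tetraspanins, the coreceptor with its regulators, and surface markers of activated, germinal centre, memory and plasma cells. Tetraspanins and coreceptor genes fall on both sides of 0, and the 6 genes of the third list all lie below it.

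Surface markers of later stages were all on the lower side where they could be tested. Of 16 markers of activated, germinal centre, memory and plasma cells 6 were tested, and all 6 were lower in the mean in shTFII-I cells, with a median log2 difference of -0.27, while 50% of all genes were lower. Fas, the death receptor, passed the filter through the shCT arrays alone, so its direction was set by the filter; without it 5 genes were left, all 5 lower, with a median of -0.33. In limma 0 of the 6 passed the threshold and 2 had an unadjusted p under 0.05, or 33.3% against 7.31% of all genes. Cd69, an early activation antigen, read 8.81, 8.03 and 8.55 in shCT and 8.02, 7.51 and 7.83 in shTFII-I arrays. Its groups were only just apart, with a difference of -0.68 ± 0.23 (log2, SE, limma adjusted p = 0.701). Cd83, which marks activated B cells and dendritic cells, differed by -0.58 ± 0.20 (limma adjusted p = 0.715), and Slamf7 by -0.33 ± 0.18 (limma adjusted p = 0.824). One of the 6, Cd44, named here for its probes of opposite sign, differed by -0.08 on its brightest probe and by 0.02 on the second.

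Among other surface genes of mature B cells, 13 of 24 were tested, with 6 higher and 7 lower in the mean and a median log2 difference of -0.007. Cd9 belongs to this list too and was the only one with an unadjusted p under 0.05, or 7.69% of the list against 7.31% of all genes. Cd79b, which carries the signal of the B cell receptor, differed by 0.74 ± 0.46 with overlapping groups (limma adjusted p = 0.861). Its second probe differed by 0.83 ± 0.19 without overlap of the groups (limma adjusted p = 0.517). Of the pro-B and pre-B markers 3 of 12 were tested, 1 higher and 2 lower. The higher one was Vpreb3, related to the surrogate light chain. It read 7.88, 7.49 and 8.05 in shCT and 8.40, 8.78 and 8.51 in shTFII-I arrays, without overlap of the groups, a difference of 0.76 ± 0.18 (log2, SE, limma adjusted p = 0.533). Igll1 and Spn, the other two, differed by -0.12 and -0.09. Of the genes that act beside CD45, 6 of 11 were tested, 3 higher and 3 lower by their brightest probes. Blk, a Src family kinase of B cells, was singled out after its values were seen because its 3 probes differed in size, by 0.09, 0.89 and 0.26. The groups overlapped on the first of these and were apart on the others (limma adjusted p = 0.99, 0.409 and 0.776). In the same list Ptpn12, a phosphatase, differed by -0.30 ± 0.13 and Csk, which phosphorylates the inhibitory tyrosine that CD45 clears, by 0.62 ± 0.26 (limma adjusted p = 0.767 and 0.776). The Ptpn12 groups did not overlap on this probe. By brightest probes Ptpn12 alone had an unadjusted limma p under 0.05, or 16.7% of the list against 7.31% of all genes. A second Ptpn12 probe differed by 0.02, and the tested probes of Ptpn6 by -0.63 and 0.30. On the second Ptpn12 probe and on both Ptpn6 probes the groups overlapped. Of 6 genes listed under shedding and ligands of CD23 and CD93, 2 were tested, Cd74 at 0.72 ± 0.25 and Adam17 at 0.06 ± 0.22 (limma adjusted p = 0.715 and 0.986). Whether Cd74 sheds or binds either antigen was not tested. A second Adam17 probe differed by 0.27, with its shTFII-I arrays above its shCT arrays (limma adjusted p = 0.809). Other probes of Cd74 differed by 0.16 and 0.14. The probe at 0.16 passed the filter through the shTFII-I arrays alone, which set its direction. On the probe at 0.14 the groups overlapped.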

How the data were processed

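RNA from 6 samples, 3 shCT and 3 shTFII-I, was read on Illumina bead arrays. The authors deposited log2 intensities for 45281 probes. From the values, it was quantile normalized between arrays, since sorted columns differ by at most 0.00118. The submitters' processing notes name limma; for its role and for any background correction, the method is not given in the sources used here. Another table has 12 columns of per-sample values whose headings match no sample, and was not used.

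Background was modelled from the values below their mode, 6.45, mirrored about it, which gave the level of 6.61, and 12757 probes exceeded it on each array. Probes above it on at least 3 arrays, 12131 in all, were fitted with limma 3.58.1 in R 4.3.3 (constant prior variance, Benjamini-Hochberg over all probes, threshold 0.05), a script tested on simulated data. Differences of probes that did not pass are plain differences of means. Precision is limited by the number of arrays: 95% intervals reached a median of 0.378 (log2) to each side.

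Names came from the platform annotation (34885 probes with 1 symbol, 18 with several, 10378 with none), updated by Entrez ID for 34807 probes through the RefSeq table of GRCm38.p6. Related genes are given by the brightest probe past the filter. Every marker probe is named; of each other list at most 4 genes of smallest p are named (Blk and Cd44 were added for probes that differ), and of marker lists of cell types those that passed, with examples that did not. The members, lists and tests were chosen with earlier results of these data known. Alternatives covered the filter, background correction, prior, array weights, choice of probe, threshold, centring, replicate block and each array left out.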

Additional observations from a re-analysis of the deposited data

How the results depend on the processing

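The count of 0 marker probes past the threshold held under each alternative except an unadjusted p under 0.05, which gave 1 (Cd81). Over all probes 0 became 9 with normexp (offset 16), 14 with a prior following intensity, 14 with that prior made robust, and 789 at an unadjusted p under 0.05. With 1 array left out it ran from 0 to 0. Cd81 stayed negative in all 17 alternatives, from -0.79 to -0.59, with limma adjusted p from 0.282 to 0.988. Its sign could hardly have changed, since every shTFII-I array lay below every shCT array. Many settings also leave its difference as it was, so the constant sign adds no evidence. Normexp gave Cd81 as 1.64-fold lower. Differences near 0 changed sign: Cd53 was 0.020 with normexp, and Fcer2a -0.011 as the mean of its probes. With 1 array left out Cd53 ran from -0.11 to 0.15, the brighter Fcer2a probe from -0.034 to 0.10, the second from -0.12 to 0.024, and Ptprc from -0.021 to 0.13; the cause was not tested. With a looser background level of 6.57, 8 marker probes passed in place of 6, Ms4a1 and the third Fcer2a probe being added. The replicate number as a block left 0 marker probes and 0 of all probes past the threshold, with Cd81 at -0.66 (limma adjusted p = 0.575). For arrays of the same number, deviations from the group means correlated at -0.03, 0.003 and 0.09 over probes. For other pairs between groups they correlated at -0.12 to 0.14. With so few arrays in each group, these values cannot tell whether arrays of the same number shared a culture or a day. The median residual SD was 0.107 in the dimmest 25% of probes and 0.359 in the brightest 25%, and background left in the values makes differences of dim probes too small.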
